A study of Mus musculus with 8 samples.

Results

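Chromosome 8 genes of differentiating mouse embryonic stem cells are described here, gene by gene and along the chromosome. The 504 genes are the symbols of the deposited expression table that lie on chromosome 8 only and average at least 5 FPKM, fragment counts scaled to transcript length and library size, over all 8 libraries. They were taken from 1978 chromosome 8 symbols and 38610 symbols in all. The chromosome was chosen on measured values, because its genes lay low together in 2 libraries, so every comparison of those 2 libraries with the others is a description and carries no test. Of the 504 genes, 462 have conventional names and 42 have XLOC, clone, Gm or Rik names. The first by position is Arhgef18, which starts at 3393007, and the last is Itgb1, which ends at 131257479, in the coordinates of the deposited table. The genes just inside the minimum were Slc10a7 at a mean of 5.03 FPKM and Nae1 at 5.11 FPKM, and just outside were Zfp868 at 4.92 and Cklf at 4.93 FPKM.

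RNA was sequenced from CJ9 cells, a mouse embryonic stem cell line (strain 129S4/SvJae), on day 4 after leukemia inhibitory factor, the cytokine that maintains the undifferentiated state, was withdrawn. Wild-type (WT) cells gave 2 libraries. Cells with a knockout (KO) of Evx1as, a noncoding transcript from beside the gene Evx1, gave 3, and a further 3 are labelled EVX1 KO, after the homeobox protein that Evx1 encodes. The series title names CRISPR as the method of the knockouts. The labels give no clone, culture or passage for any library, so p-values measure only the spread between these libraries, which may be technical. In bulk RNA, fewer cells of a type and less RNA per cell cannot be told apart.

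The RNA made from a gene usually scales with the number of its copies, so gain or loss of a chromosome or of a part of it shifts many neighbouring genes together and by a similar factor. Cultured mouse embryonic stem cells are known for acquiring an extra chromosome 8, often in only some cells of a culture. Some genes depart from such a shift because their own regulation outweighs it. Copy number was not measured in these samples.

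As a check of the labels, the Evx1as transcript (5730457N03Rik) was at most 0.10 FPKM in Evx1as KO, against 5.36 and 6.75 FPKM in WT and 5.01, 8.81 and 7.39 FPKM in EVX1 KO replicates 1, 2 and 3. Evx1 mRNA was as high in EVX1 KO (26.3, 20.8 and 31.7 FPKM) as in WT (22.0 and 31.2 FPKM) and lower in Evx1as KO (2.45, 3.84 and 0.54 FPKM), so its level does not check the EVX1 KO label. Summed FPKM lay between 531523 and 587798, and the depth of the other libraries relative to WT replicate 1, read from steps between low values, between 0.865 and 1.19. Absolute depth is unknown. Summed levels of 7 pluripotency markers lay at 451 to 577 FPKM in WT and EVX1 KO libraries. They lay at 963, 814 and 864 FPKM in Evx1as KO replicates 1, 2 and 3. Sums of 6 primitive streak and mesoderm markers lay at 314 to 379 FPKM in WT and EVX1 KO libraries and at 52.3, 135 and 38.8 FPKM in Evx1as KO replicates 1, 2 and 3. Sums of 8 fibroblast markers lay between 11.8 and 31.8 FPKM, with Postn, Lum and Fap at or near 0. The part of these markers in the results below was not tested.

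Chromosome 8 genes lay low in EVX1 KO replicates 1 and 2 and not in replicate 3. Each value below, unless said otherwise, is a centred value, that is log2(FPKM + 1) minus the mean of the same gene over the 8 libraries. The median over the 504 genes was −0.38 in EVX1 KO replicate 1 and −0.30 in replicate 2. It was 0.08 in EVX1 KO replicate 3, 0.11 and 0.01 in WT, and 0.16, 0.15 and 0.15 in Evx1as KO. Read as FPKM, the median gene stood at 71.8% of its WT mean in EVX1 KO replicate 1, 76.6% in replicate 2 and 102% in replicate 3, against 106% to 107% in Evx1as KO. The 7778 genes of other chromosomes had medians of 98.8% to 102% of their WT mean in every library.

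The shift took in nearly the entire distribution rather than a tail of it. In EVX1 KO replicate 1, 93.8% of the genes lay below their own mean, and the middle 50% of genes lay between −0.52 and −0.24. In replicate 2, 88.3% lay below their mean, with the middle 50% of genes between −0.42 and −0.15. In EVX1 KO replicate 3 the share was 27.8%, and in WT and Evx1as KO it lay between 15.5% and 47.8%. The share of all summed FPKM that came from these genes was 3.54% and 3.80% in EVX1 KO replicates 1 and 2 and 5.17% in replicate 3, against 4.89% to 5.32% in WT and Evx1as KO. A further 208 chromosome 8 genes with a mean of 1 to 5 FPKM, below the minimum, had medians of −0.24 and −0.20 in replicates 1 and 2 and 0.04 in replicate 3. In replicates 1 and 2 no other chromosome had a median below −0.02, and the highest was chromosome 14 at 0.17 and 0.18. Chromosome 8 was not alone in shifting as a body: chromosome 14 (322 genes) had medians of −0.36 and −0.34 in Evx1as KO replicates 2 and 3, and 0.13 in their replicate 1 and 0.16 in EVX1 KO replicate 3.

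**Figure D1:**
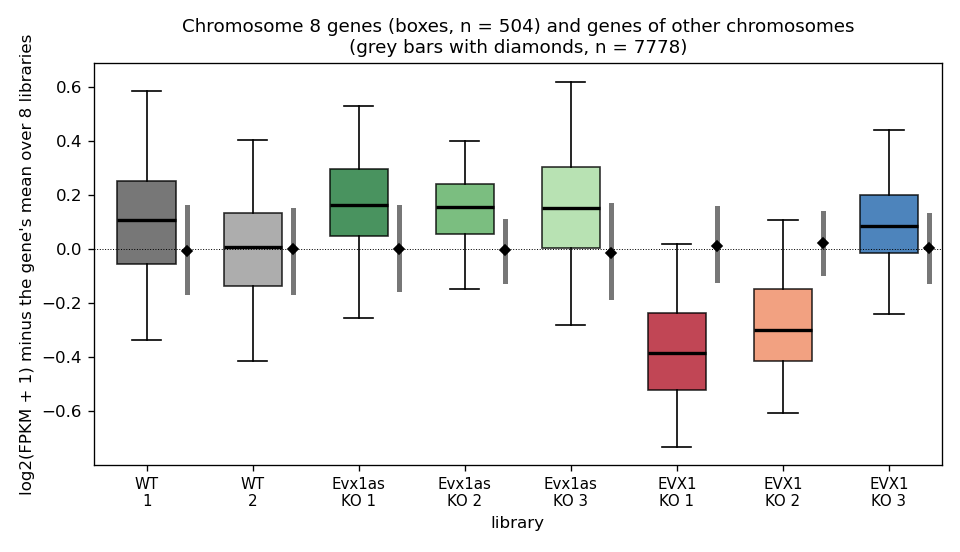
Centred log2(FPKM + 1) of the 504 chromosome 8 genes in each library (y axis), with boxes for the middle 50% of genes, lines for medians and whiskers for the middle 90%; grey bars and diamonds give the middle 50% and the median of 7778 genes of other chromosomes. The boxes of EVX1 KO replicates 1 and 2 lie below 0, with medians of −0.38 and −0.30, while the diamonds stay near 0 in every library.

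Counted gene by gene, 322 of the 504 (63.9%) had their EVX1 KO replicate 1 and 2 values both below all 6 other libraries. Among genes of other chromosomes the share was 5.18% (403 of 7778). EVX1 KO replicate 1 alone lay below the 6 libraries in 385 genes and replicate 2 in 344, whereas replicate 3 lay below all WT and Evx1as KO libraries in 68. The same single-library counts over genes of other chromosomes are not given. Replicate 1 was the lowest of all 8 libraries in 284 genes and replicate 2 in 123. The share differed with the level of the gene, being 45.5% of the 123 genes with a mean of 5 to 10 FPKM, 61% of the 118 genes at 10 to 20 FPKM, 70.1% of the 154 genes at 20 to 50 FPKM and 78.9% of the 109 genes at or above 50 FPKM. The median percentage of the WT mean in replicate 1 went from 77.8% in the lowest of these classes to 66.0% in the highest. In replicate 2 it was 79.8%, 77.6%, 77.9% and 71.7% over the 4 classes, and in replicate 3, which had no drop, it went from 107% to 100.02%.

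Along the chromosome the libraries differed. In EVX1 KO replicate 1 the medians of successive windows of 10 Mb with at least 4 genes lay between −0.32 and −0.46, from the first window to the last. In EVX1 KO replicate 2 the medians were −0.16 and −0.19 in the first 2 windows, −0.01 between 20 and 30 Mb and −0.01 between 30 and 40 Mb, −0.12 between 40 and 50 Mb, and −0.30 to −0.38 in every window from 50 to 130 Mb. The window from 50 to 60 Mb holds only 4 genes and the next 14, so where the level changes within this stretch is not resolved. In EVX1 KO replicate 3 no window median was below −0.01.

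**Figure D2:**
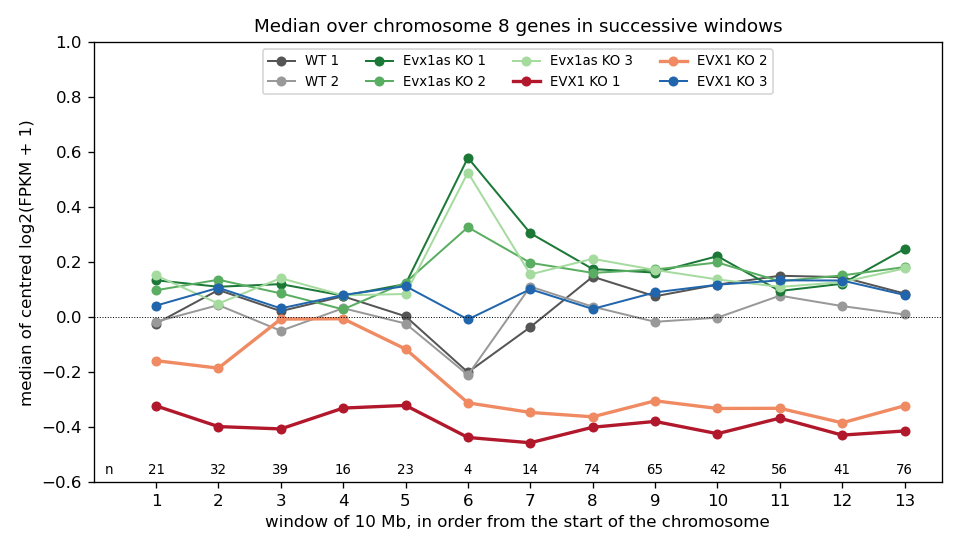
Median centred log2(FPKM + 1) of chromosome 8 genes (y axis) in 13 successive windows of 10 Mb (x axis), 1 line per library, with the number of genes in each window printed at the bottom. EVX1 KO replicate 1 stays between −0.32 and −0.46, while replicate 2 reaches −0.01 in windows 3 and 4 and approaches replicate 1 from window 6 on; window 6 holds 4 genes.

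The chromosome was split at 50 Mb after these values had been seen. Among the 131 genes that start before 50 Mb, the median gene stood at 72.2% of its WT mean in EVX1 KO replicate 1 and at 90.5% in replicate 2. Among the 373 genes that start after 50 Mb the medians were 71.4% and 73.7%. Replicate 2 lay above replicate 1 in 114 of the 131 proximal genes (87.0%) and in 227 of the 373 distal genes (60.9%). Both lay below the other 6 libraries in 51 proximal genes (38.9%) and in 271 distal genes (72.7%). Over genes of other chromosomes the 2 libraries differed by a median of 0.01, replicate 2 minus replicate 1, against 0.27 over the proximal and 0.04 over the distal genes. Between 20 and 40 Mb, a stretch also picked after its values were seen, the median of the 55 genes stood at 70.7% of WT in replicate 1 and 99.0% in replicate 2.

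Named proximal genes show this in single values. Fgfr1, a receptor of fibroblast growth factors that starts at 26629243, stood at 128 and 112 FPKM in WT, 98.7, 103 and 108 in Evx1as KO, and 79.4, 105 and 117 in EVX1 KO replicates 1, 2 and 3. Only EVX1 KO replicate 1 lay clear of the other libraries. Eif4ebp1, an inhibitor of cap-dependent translation that starts at 28370798, stood at 216 and 215 FPKM in WT, 300, 255 and 260 in Evx1as KO, and 175, 229 and 241 in EVX1 KO. Agpat6, an acyltransferase of glycerolipid synthesis at 24283417, stood at 36.5 and 33.7 FPKM in WT, 31.1, 32.6 and 31.6 in Evx1as KO, and 22.0, 32.1 and 38.1 in EVX1 KO. Gsr, the glutathione reductase gene at 34763709, stood at 27.7 and 28.0 FPKM in WT, 41.8, 37.2 and 37.1 in Evx1as KO, and 22.4, 31.3 and 32.9 in EVX1 KO. In all 4 of these genes the lowest library was EVX1 KO replicate 1, and replicate 2 lay within the range of the WT and Evx1as KO libraries. The proximal gene Zfp42 (Rex1), a marker of naive pluripotency that starts at 44380420, lies outside this stretch and did not follow. It stood at 16.7 and 13.1 FPKM in WT, 8.34, 14.3 and 9.59 in Evx1as KO, and 10.4, 14.5 and 10.3 in EVX1 KO, with all groups overlapping.

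**Figure D3:**
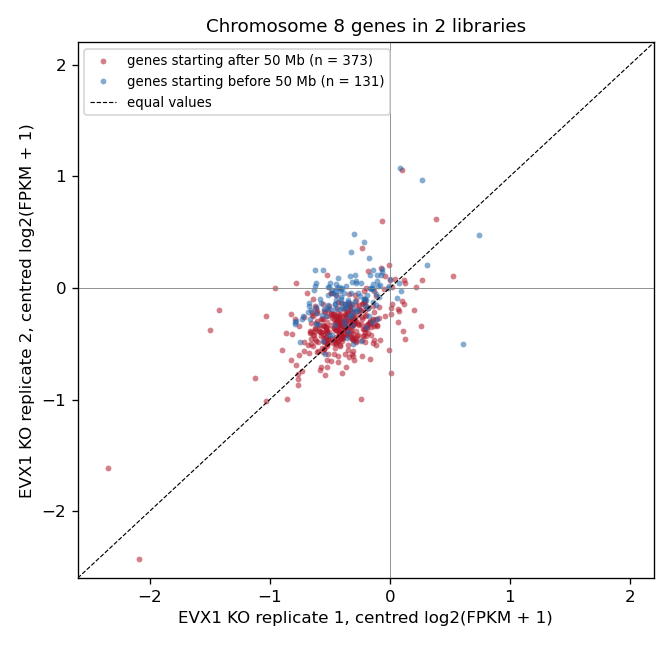
Centred log2(FPKM + 1) of each chromosome 8 gene in EVX1 KO replicate 1 (x axis) and replicate 2 (y axis), with genes starting before 50 Mb in blue and after 50 Mb in red; the dashed line marks equal values. Of the blue points 114 of 131 lie above the line, against 227 of 373 red points, and the 2 lowest points are Mt1 and Mt2.

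At the ends of the chromosome the same values can be read. Zfp358, the second gene by position, stood at 23.4 and 19.6 FPKM in WT, 26.1, 23.6 and 31.1 in Evx1as KO, and 15.1, 15.8 and 21.8 in EVX1 KO replicates 1, 2 and 3. Arhgef18, a guanine nucleotide exchange factor gene and the first by position, did not differ in this way, at 19.3, 17.2 and 17.9 FPKM in EVX1 KO against 18.1 and 17.4 FPKM in WT. At the distal end Pard3, a cell polarity gene, stood at 27.1 and 23.7 FPKM in WT, 31.0, 29.8 and 30.7 in Evx1as KO, and 19.5, 22.1 and 28.8 in EVX1 KO. Itgb1, which encodes the integrin beta-1 subunit and is the last gene, stood at 93.4 and 95.9 FPKM in WT, 92.5, 84.0 and 82.7 in Evx1as KO, and 53.8, 64.6 and 98.3 in EVX1 KO. In Zfp358, Pard3 and Itgb1 replicates 1 and 2 lay below all 6 other libraries.

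Of the 10 most highly expressed genes of the chromosome, 9 lay lowest in EVX1 KO replicates 1 and 2. Rpl13, a protein of the large ribosomal subunit, stood at 1822 and 1670 FPKM in WT, 2683, 2328 and 2670 in Evx1as KO, and 1282, 1281 and 1811 in EVX1 KO. It was lowest in EVX1 KO replicates 1 and 2 and highest in Evx1as KO, with no overlap between Evx1as KO and WT.

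Cox4i1, a subunit of cytochrome c oxidase, stood at 440 and 390 FPKM in WT, 452, 406 and 442 in Evx1as KO, and 284, 278 and 423 in EVX1 KO. Slc25a4, the mitochondrial ADP/ATP carrier, stood at 548 and 454 FPKM in WT, 316, 338 and 325 in Evx1as KO, and 235, 308 and 450 in EVX1 KO. Cdh1, which encodes E-cadherin, stood at 355 and 395 FPKM in WT, 333, 350 and 316 in Evx1as KO, and 239, 244 and 379 in EVX1 KO. The first of these has the same order of libraries within EVX1 KO as Rpl13, with replicates 1 and 2 below replicate 3, while in Slc25a4 the Evx1as KO libraries also lay below both WT libraries. Prdx2, Cfdp1 and Aprt, with roles in peroxide removal, chromosome organisation and adenine salvage, stood at 58.7% to 69.5% of their WT mean in replicate 1, 61.5% to 79.5% in replicate 2 and 90.1% to 114% in replicate 3. The exception was Calr, the endoplasmic reticulum chaperone calreticulin, at 947 and 888 FPKM in WT, 609, 636 and 528 in Evx1as KO, and 482, 579 and 708 in EVX1 KO, where EVX1 KO replicate 2 overlapped Evx1as KO.

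Grouped by role, the lists differed in how many genes lay lowest in both libraries. These counts stand beside the 63.9% of all 504 genes and carry no test. Some lists are broader than their names. The list of the proteasome, ubiquitin and protein folding also holds Prdx2, Cfdp1, Lamp1, Vps35 and Rab8a. That of lipid and nucleotide metabolism also holds Gpt2 and Cotl1. Of 14 genes of ribosomal proteins and translation 12 lay lowest in both, and the list's medians were −0.54 and −0.37 in replicates 1 and 2. Of 10 genes of mitochondrial energy metabolism 9 did (medians −0.38 and −0.32), and of 17 genes of the proteasome, ubiquitin and protein folding 14 did (−0.39 and −0.33). Of 14 DNA replication and repair genes 10 did (−0.37 and −0.36). The replication licensing factor Cdt1 stood at 48.1 and 49.1 FPKM in WT, 80.5, 68.6 and 88.1 in Evx1as KO, and 46.4, 37.4 and 59.6 in EVX1 KO. Gins2, a subunit of the replicative helicase complex, stood at 42.2 and 41.7 FPKM in WT, 64.7, 50.1 and 54.6 in Evx1as KO, and 33.0, 25.7 and 42.3 in EVX1 KO.

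Counts in the other lists were lower. Of 11 transcription factor genes 4 lay lowest in both (medians −0.20 and −0.22), of 15 chromatin genes 6 (−0.35 and −0.14), of 13 growth factor and morphogen signalling genes 5 (−0.19 and −0.04), of 10 adhesion and matrix genes 5 (−0.32 and −0.22), of 8 lipid and nucleotide metabolism genes 4 (−0.36 and −0.28) and of 5 metallothionein and redox genes 3 (−0.51 and −0.47). Jund, a subunit of the AP-1 transcription factor, was among those lowest in both, at 104 and 100 FPKM in WT, 138, 128 and 119 in Evx1as KO, and 56.7, 63.3 and 96.5 in EVX1 KO. E2f4, a cell cycle repressor, stood at 117 and 124 FPKM in WT, 135, 150 and 144 in Evx1as KO, and 75.6, 90.4 and 123 in EVX1 KO. Ctcf, which encodes the insulator protein of chromatin loops, stood at 34.2 and 40.8 FPKM in WT, 42.1, 42.7 and 42.5 in Evx1as KO, and 29.4, 32.1 and 41.5 in EVX1 KO. Junb and Irs2 overlapped other libraries: Junb, an immediate early AP-1 gene, stood at 113 and 120 FPKM in EVX1 KO replicates 1 and 2 against 83.9 to 190 FPKM in WT and Evx1as KO, and Irs2, an adaptor of insulin receptors, at 97.6 and 98.6 FPKM against 94.7 to 111 FPKM.

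Complexes with subunits on and off the chromosome allow a comparison within a library, and the gap differed between complexes. Cox4i1, Ndufa13 and Ndufb7, subunits of respiratory complexes I and IV, had medians of −0.43 and −0.47 in EVX1 KO replicates 1 and 2, and 45 such genes of other chromosomes had −0.07 and −0.04. Rpl13 lay at −0.55 in both libraries, and 73 ribosomal protein genes of other chromosomes, also below 0, had medians of −0.10 and −0.14. The proteasome genes Psmb10 and Psmd7 went apart. Psmb10 lay at 0.53 and 0.11 in replicates 1 and 2, while Psmd7 lay below both WT libraries in each. Their joint medians of −0.07 and −0.14 therefore describe neither gene. The 34 proteasome genes of other chromosomes had medians of −0.05 and 0.08. Of the 3 genes of the GINS complex on the chromosome, Gins4, which lies proximally, stood at 29.6 and 42.6 FPKM in replicates 1 and 2 against 41.5 and 44.1 FPKM in WT. The distal Gins3 stood at 3.04 and 4.35 FPKM against 5.75 and 4.89 FPKM in WT, with replicate 1 lower as in Gins4. The distal Gins2 had the opposite order, at 33.0 and 25.7 FPKM. Gins1, on another chromosome, had centred values of −0.03 and −0.12.

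Few genes did not share the drop. In 15 genes (2.98%) EVX1 KO replicates 1 and 2 both lay at or above the gene's mean over the 8 libraries, against 35.7% of genes of other chromosomes. Of the 15, Sfrp1, Zfp703, Purg and Dlc1 start between 20 and 40 Mb, where EVX1 KO replicate 2 had no drop at the median and lay at or above the mean in 26 of 55 genes. By level, 9 of the 15 had a mean of 5 to 10 FPKM, 5 of 10 to 20 FPKM and 1, Psmb10, above 50 FPKM. They were not neighbours of each other: of the 30 genes that flank them, none was among the 15 and 25 lay below their mean in both libraries, with medians of −0.38 and −0.20. Besides the 12 described next they were Zfp423, Cx3cl1 and 4921524J17Rik, named after their values were seen. The count depends on the reference, since low values in Evx1as KO pull a gene's mean down. Of the 15, 7 were called lower and 4 higher in Evx1as KO against WT by limma, the linear model described below. Of all genes tested 11.4% were called lower and 13% higher. Evx1as KO values enter the mean by which the 15 were picked, so these counts are a description and carry no test. Set against the WT mean instead, 38 genes had both libraries at or above it, and 8 of those were among the 15. A stricter criterion, both libraries at or above the WT mean and at or above EVX1 KO replicate 3, was met by 9 genes, among them Sfrp1, Gas6, Purg, Sipa1l2 and Bst2. For the counts of 38 and 9 no share over genes of other chromosomes is given.

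Sfrp1, a secreted inhibitor of Wnt signalling, was the clearest of these, at 0.90 and 0.86 FPKM in WT, 9.03, 7.34 and 12 in Evx1as KO, and 8.33, 6.72 and 2.34 in EVX1 KO replicates 1, 2 and 3. Both WT libraries lay below all 6 knockout libraries. Its neighbour Golga7, 154 kb away, had centred values of −0.41 and −0.10 in replicates 1 and 2. Adam9, the neighbour on the other side, had −0.08 and 0.03. Gas6, a ligand of the TAM receptor kinases, stood at 10.6 and 8.24 FPKM in WT, 13.9, 16.4 and 13.3 in Evx1as KO, and 16.6, 15.4 and 13.5 in EVX1 KO. Again WT was lowest, while the adjacent gene Tfdp1, a dimer partner of E2F factors, stood at 58.4% and 80.9% of its WT mean in replicates 1 and 2. Cdc16, the neighbour on the other side, stood at 91.1% and 99.7%. Purg, a nucleic acid binding protein gene, stood at 3.73 and 4.05 FPKM in WT, 8.24, 7.65 and 7.49 in Evx1as KO, and 6.36, 6.21 and 5.70 in EVX1 KO. Sipa1l2, which encodes a protein of the Rap GTPase-activating family, stood at 6.48 and 8.19 FPKM in WT, 9.10, 10.7 and 10.4 in Evx1as KO, and 11.4, 9.84 and 9.20 in EVX1 KO. In Sfrp1, Gas6, Purg and Sipa1l2 EVX1 KO replicate 1 lay above replicate 3, the reverse of the chromosome's median.

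Another set met the criterion with values that differ between the references. Zfp703, a transcriptional corepressor gene, stood at 38 and 25 FPKM in WT, 1.51, 5.64 and 2.84 in Evx1as KO, and 13.6, 22.7 and 19.7 in EVX1 KO. Both EVX1 KO replicates 1 and 2 lay above the gene's mean and below both WT libraries. Dlc1, a tumour suppressor gene, stood at 15.6 and 16.7 FPKM in WT, 3.06, 4.90 and 3.06 in Evx1as KO, and 10.6, 22.1 and 26.1 in EVX1 KO. Cdh11, a mesenchymal cadherin, stood at 12.1 and 4.91 FPKM in WT, 0.48, 0.46 and 0.49 in Evx1as KO, and 3.84, 8.37 and 14.2 in EVX1 KO. In Zfp703, Dlc1 and Cdh11 EVX1 KO replicate 1 was the lowest of the EVX1 KO libraries and lay below both WT libraries, so only the low Evx1as KO values place it above the mean. Psmb10, a subunit of the immunoproteasome, stood at 73.5 and 70.3 FPKM in WT, 30.7, 35.1 and 35.2 in Evx1as KO, and 76.5, 57 and 70.4 in EVX1 KO. There replicate 1 was the highest of all libraries, while the proteasome subunit gene Psmd7 stood at 82.9 and 101 FPKM in replicates 1 and 2 against 142 and 148 FPKM in WT.

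The remaining 4 of the 12 were Lzts1, Tmem170, Esrp2 and Cacna1a. Lzts1, a leucine zipper tumour suppressor gene, stood at 6.40 and 6.73 FPKM in WT, 3.25, 4.38 and 2.30 in Evx1as KO, and 8.54, 10.2 and 16.3 in EVX1 KO. Esrp2, an epithelial splicing regulator, stood at 21.4 and 25.3 FPKM in WT, 13.1, 13.5 and 13.0 in Evx1as KO, and 18.3, 18.7 and 22.1 in EVX1 KO. Lzts1 was thus highest in EVX1 KO, with replicate 3 above replicates 1 and 2, whereas in Esrp2 replicates 1 and 2 lay below WT. Tmem170 and Cacna1a, a calcium channel subunit gene, stood at 7.12 and 6.84 FPKM and at 10.3 and 9.74 FPKM in EVX1 KO replicates 1 and 2, against 4.04 and 5.32 and 7.84 and 10.5 FPKM in WT.

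**Figure D4:**
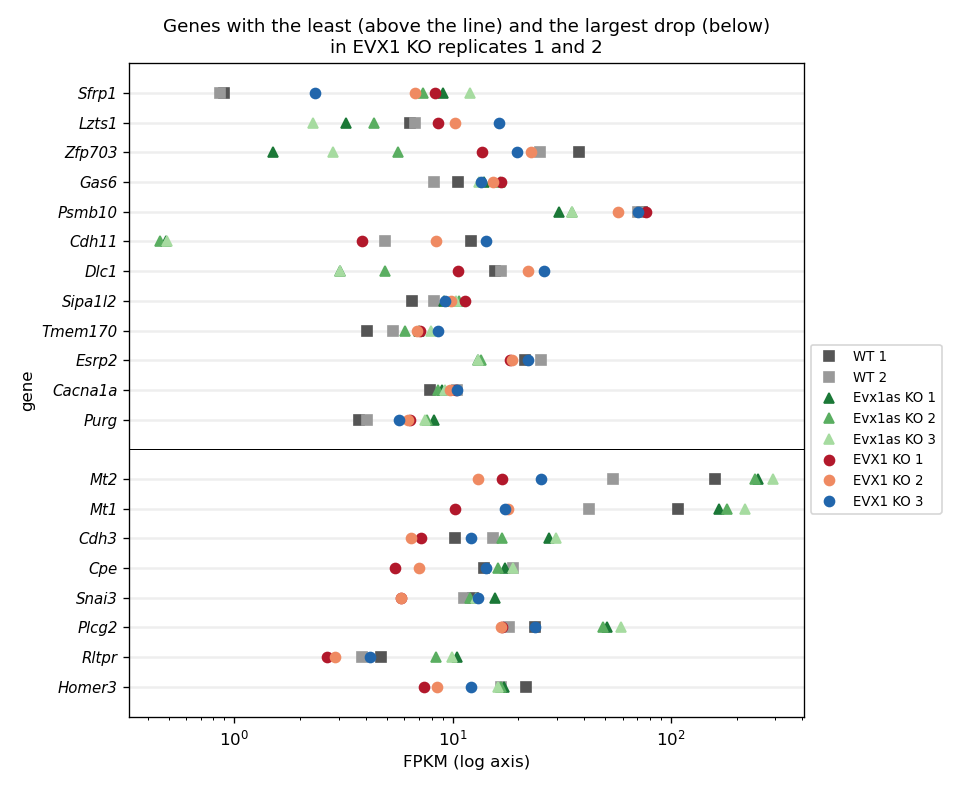
FPKM on a log axis (x) of the 12 named genes with the least and the 8 with the largest drop in EVX1 KO replicates 1 and 2 (y), with squares for WT, triangles for Evx1as KO and circles for EVX1 KO libraries. Sfrp1 rests at 0.86 to 0.90 FPKM in WT and higher in every knockout library, and Mt1 and Mt2 lie at 10.3 to 25.3 FPKM in all 3 EVX1 KO libraries.

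At the other extreme stood the metallothionein genes Mt1 and Mt2, which encode small metal-binding proteins and are induced by zinc, cadmium and glucocorticoids. Mt2 (96696517 to 96697467) stood at 159 and 54.3 FPKM in WT, 251, 242 and 295 in Evx1as KO, and 16.7, 13.0 and 25.3 in EVX1 KO. Mt1 (96702988 to 96704227) stood at 108 and 42.1 FPKM in WT, 166, 181 and 218 in Evx1as KO, and 10.3, 17.9 and 17.3 in EVX1 KO. All 3 EVX1 KO libraries lay below WT and all Evx1as KO libraries above it, so replicate 3 did not stand apart as it did over the chromosome. The 2 WT libraries differed 2.93-fold in Mt2 and 2.56-fold in Mt1. The flanking gene Ogfod1 had centred values of −0.34 and −0.13 in replicates 1 and 2, and Nup93, on the other side, −0.81 and −0.42.

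The promoters of this pair are shown because the pair lay lowest of all 504 genes in EVX1 KO replicates 1 and 2 and was low in replicate 3 as well. Each window holds 250 bases before and 50 after the annotated start, from RefSeq on build GRCm38.p6, at 8:94178839-94179138 for Mt1 and 8:94172368-94172667 for Mt2, both on the plus strand. These coordinates are of another build than those of the expression table. Capitals mark matches to the core of the metal response element, the motif bound by the zinc-sensing factor MTF1, searched as TGCACNC and TGCGCNC on both strands.
Mt1: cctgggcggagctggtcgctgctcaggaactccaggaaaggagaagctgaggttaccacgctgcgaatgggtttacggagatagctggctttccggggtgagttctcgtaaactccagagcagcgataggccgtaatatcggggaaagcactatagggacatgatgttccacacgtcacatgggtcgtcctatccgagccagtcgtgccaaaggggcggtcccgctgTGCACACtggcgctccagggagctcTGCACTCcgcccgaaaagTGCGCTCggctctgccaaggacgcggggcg
Mt2: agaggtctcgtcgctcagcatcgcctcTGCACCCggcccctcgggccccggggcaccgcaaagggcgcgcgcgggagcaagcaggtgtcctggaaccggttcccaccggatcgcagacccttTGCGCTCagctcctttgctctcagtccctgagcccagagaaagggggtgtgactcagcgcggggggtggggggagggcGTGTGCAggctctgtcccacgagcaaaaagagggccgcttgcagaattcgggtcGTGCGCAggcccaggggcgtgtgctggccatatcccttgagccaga
The Mt1 window held 3 matches and the Mt2 window 4, none overlapping another. Of 27025 genes with such a window, 25.6% held at least 1 match, 2.00% at least 3 and 0.503% at least 4. Promoters were found by symbol for 319 of the 504 genes, and 6 of these held at least 4 matches, Mt2 among them. With under 80% of the genes matched, a comparison of promoter content with other genes is void.

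Other genes with the largest drop stood nearer WT in replicate 3, though Homer3 stayed well below it. Cpe, which encodes a prohormone-processing carboxypeptidase, stood at 14 and 18.9 FPKM in WT, 17.4, 16.1 and 19.0 in Evx1as KO, and 5.42, 6.99 and 14.1 in EVX1 KO. Snai3, a gene of the Snail zinc finger family, stood at 12.4 and 11.3 FPKM in WT, 15.7, 12 and 12.7 in Evx1as KO, and 5.82, 5.77 and 13.0 in EVX1 KO. Cdh3, which encodes P-cadherin, stood at 10.2 and 15.2 FPKM in WT, 27.5, 16.8 and 29.8 in Evx1as KO, and 7.17, 6.42 and 12.1 in EVX1 KO. In Cpe, Snai3 and Cdh3 replicate 3 lay inside or near the WT range. Homer3, a scaffold protein gene, stood at 38.4%, 44.1% and 63.2% of its WT mean in EVX1 KO replicates 1, 2 and 3, so it was low in all 3. Plcg2, a phospholipase of receptor signalling, and Rltpr, a capping protein regulator, stood at 80.1% and 61.9% of their WT mean in replicate 1 and at 114% and 97.5% in replicate 3. Their Evx1as KO values, 49.0 to 59.1 FPKM and 8.36 to 10.5 FPKM, enter the mean against which the drop is measured.

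Evx1as KO against WT is the comparison that the choice of the chromosome did not use, and it was tested with limma on log2(FPKM + 1), fitted over 13188 genes with Benjamini-Hochberg adjustment and called at an adjusted p under 0.05. All 504 chromosome 8 genes passed its filter. Of these 79 (15.7%) rose and 25 (4.96%) fell. Over all genes tested 13% rose and 11.4% fell, and over genes of other chromosomes with a mean of at least 5 FPKM 13.7% rose and 14.1% fell. In this fit the share that rose was near the background and the share that fell lower than it, with no test of either difference. The median log2 fold change was 0.08 over the 504 genes and −0.01 over those of other chromosomes. The first was 0.13 without WT replicate 1, 0.06 without WT replicate 2 and 0.01 with the replicate number as a block. The counts depend on single libraries, as do those over all genes tested. Without Evx1as KO replicate 1, 36 (7.14%) were higher and 16 (3.17%) lower, beside 8.17% and 8.05% of all genes in that fit. Without Evx1as KO replicate 3, 36 (7.14%) were higher and 14 (2.78%) lower, beside 7.22% and 6.64% of all genes. The EVX1 KO libraries, the 2 low ones among them, enter the shared estimate of the spread. Fitted with only WT and Evx1as KO, 107 (21.2%) were higher and 35 (6.94%) lower. Of all genes in that fit 13.4% were higher and 11.03% lower, so the share that rose lay above its background. Without EVX1 KO replicate 3 alone the counts were also 107 and 35, beside 13.98% and 11.9% of all genes. The share that rose was thus near the background only in some fits, and no difference was tested.

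The 8 named genes that fell in Evx1as KO have different roles. Zfp703 fell by 2.99 ± 0.37 (log2 fold change ± SE, limma adjusted p = 0.00171), Cdh11 by 2.57 ± 0.45 (adjusted p = 0.00524) and Dlc1 by 1.90 ± 0.32 (adjusted p = 0.00482), from the values given above. The collagen IV chains Col4a1 and Col4a2, basement membrane components encoded side by side, fell by 1.41 ± 0.25 and 1.49 ± 0.28 (limma adjusted p = 0.00569 and 0.00689). Col4a1 stood at 111 and 78.3 FPKM in WT, 25.2, 46.4 and 34.6 in Evx1as KO, and 41.9, 55.8 and 59.2 in EVX1 KO, where all 3 libraries also lay below both WT libraries. Acta1, the skeletal muscle actin gene, fell by 2.40 ± 0.47 from 648 and 398 FPKM to 68.0, 158 and 81.3 FPKM (limma adjusted p = 0.0081). Dusp4, a phosphatase that inactivates MAP kinases, fell by 1.45 ± 0.22 (adjusted p = 0.00298), and Zfpm1, the GATA cofactor FOG1, by 1.55 ± 0.28 (limma adjusted p = 0.00635). Without WT replicate 1 the calls of Acta1, Zfpm1, Col4a1 and Col4a2 were lost, at limma adjusted p = 0.0698, 0.0507, 0.0534 and 0.0625. Those of Zfp703, Cdh11, Dlc1 and Dusp4 held in every alternative tried.

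Those that rose were likewise of different roles. Sfrp1 rose by 2.45 ± 0.38 (log2 fold change ± SE, limma adjusted p = 0.00345). Syce2, a protein of the meiotic synaptonemal complex, rose by 1.70 ± 0.27 from 8.93 and 4.37 FPKM to 25.1, 20.8 and 22.5 FPKM (limma adjusted p = 0.00353). Bst2, the antiviral factor tetherin, rose by 1.46 ± 0.20 from 101 and 70.0 FPKM to 237, 202 and 268 FPKM (limma adjusted p = 0.00225), and in EVX1 KO it stood at 151, 125 and 103 FPKM. Plcg2 rose by 1.31 ± 0.18, Gpt2, an alanine aminotransferase, by 1.24 ± 0.19 and the gelatinase gene Mmp2 by 1.09 ± 0.18 (limma adjusted p = 0.00225, 0.00306 and 0.00435). These 6 calls held in every alternative tried. Mt2 and Mt1 rose by 1.48 ± 0.40 and 1.46 ± 0.36 (limma adjusted p = 0.0268 and 0.0188), and their calls were lost without WT replicate 2, where the fold changes were 0.71 and 0.79 (limma adjusted p = 0.1595 and 0.1139), and without Evx1as KO replicate 3 (limma adjusted p = 0.0803 and 0.0624). The call of Mt2 was also lost without Evx1as KO replicate 1 (limma adjusted p = 0.0602). With no filter both calls were lost (limma adjusted p = 0.0833 for Mt2 and 0.0635 for Mt1). With the replicate block that of Mt1 was lost (limma adjusted p = 0.0528).

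**Figure D5:**
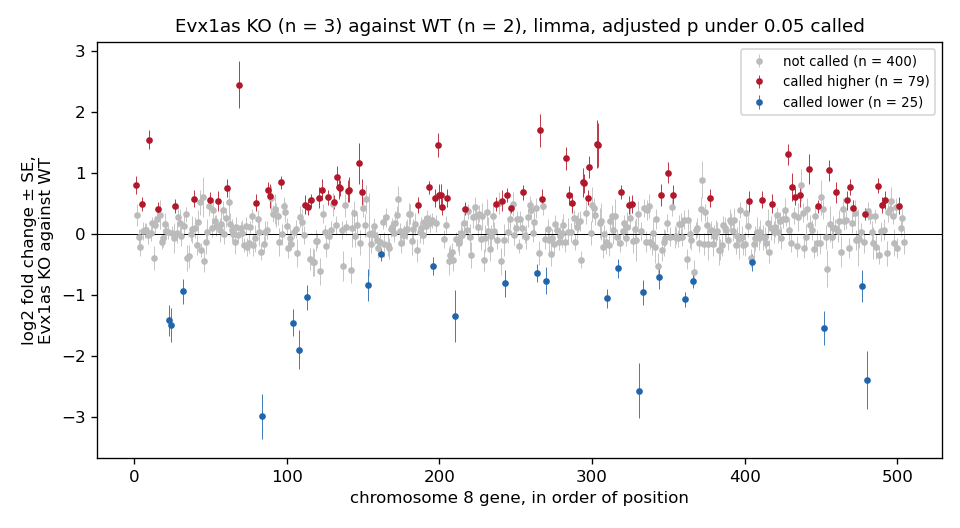
Log2 fold change ± SE of each chromosome 8 gene in Evx1as KO against WT (y axis) by its order along the chromosome (x axis), with genes called by limma in red (79 higher) and blue (25 lower). Called genes lie along the entire chromosome, and the lowest point is Zfp703 at −2.99.

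By role, the lists together held 20 rises and 10 falls in Evx1as KO among 117 entries, some genes standing in 2 lists, beside the 13% and 11.4% of all genes tested. No share of a list was tested. Of 15 chromatin genes 4 rose and 1 fell, with Hmgb2, a high mobility group protein of proliferating cells, up by 0.76 ± 0.13 from 208 and 183 FPKM to 344, 310 and 337 FPKM (limma adjusted p = 0.00541). Of 14 ribosome and translation genes 3 rose, among them Rpl13 by 0.55 ± 0.15 (limma adjusted p = 0.03). The call of Rpl13 was lost with no filter (limma adjusted p = 0.0969). Leaving out either WT library, or Evx1as KO replicate 1 or 3, ended this call, at limma adjusted p of up to 0.1574. Of 10 adhesion and matrix genes 3 fell and 1 rose, of 13 growth factor and morphogen genes 3 rose and 2 fell, and of 11 transcription factor genes 2 fell and 1 rose. Of 14 replication and repair genes 2 rose, of 17 proteasome, ubiquitin and folding genes 1 rose and 2 fell, and of 5 metallothionein and redox genes Mt1 and Mt2 rose. Of 8 genes listed under lipid and nucleotide metabolism 2 rose, Gpt2, the alanine aminotransferase gene, and Cotl1. No other gene of that list was called. Of 10 mitochondrial genes 1 rose.

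Comparisons of the 3 EVX1 KO libraries as a group average over libraries that differ on this chromosome, and they use the libraries that the choice rested on, so their counts are descriptions. In EVX1 KO against WT limma called 0 of the 504 genes higher and 6 lower, beside 0.69% and 0.554% of all genes tested, with a median log2 fold change of −0.25 and 157 genes (31.2%) at an unadjusted p under 0.05, against 21.2% of all genes tested. Those lower were Mt1, Mt2, Homer3, Mrpl34, Tmem66 and 2310045N01Rik, the last 3 named after their values were seen. Without EVX1 KO replicate 3 the count lower was 143 (28.4%, beside 2.74% of all genes in that fit). Without replicate 1 or replicate 2 it was 0, where 15 and 2 of all genes tested were called lower. In EVX1 KO against Evx1as KO 10 were called higher and 156 lower, beside 10.7% and 11.3% of all genes tested, with a median of −0.36. Without EVX1 KO replicates 1 and 2 the count lower was 14 of 504, and without replicate 3 it was 319. Over all genes tested the shares lower in those fits were 3.34% and 10.5%, so that the first count (2.78%) lay near its background and the second (63.3%) above it.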

How the data were processed

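RNA-seq of 8 mouse embryonic stem cell libraries (2 WT, 3 Evx1as KO, 3 labelled EVX1 KO) was deposited as 1 table of FPKM, which the authors scaled to transcript length and mapped fragments. Groups and replicate numbers come from the labels. Libraries were stranded mRNA libraries, per the labels' protocols. The submitters' processing notes list CASAVA, TopHat2 2.0.11, mm10 and mm9 without saying what each was used for; the program that computed FPKM and its annotation and strand setting were not given in the sources used here. Positions are those of the deposited table, whose build is not stated. Values of genes that overlap others, on either strand, or that have near-identical copies are uncertain.

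Of 45772 lines 42245 had values, for 38610 symbols; 12 symbols at or above 5 FPKM that lie on several chromosomes were left out. Values were used as log2(FPKM + 1), so fold changes of low genes are understated. The 13188 genes that reached 1 FPKM in 2 or more libraries entered 1 limma 3.58.1 fit (R 4.3.3, intensity trend, two-sided, no block), tested on simulated data, with all 3 groups sharing the spread. Relative depth rests on 41.7% to 45.1% of low-value genes at the estimated step, so reads could not be recovered and no counting interval is given.

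The members, gene lists and tests were chosen with earlier results of these data known. Named genes were the 10 of highest mean, the first and last 2 by position, up to 4 of highest mean per list, the 12 with the least and 8 with the largest drop (by the lower, or the higher, of the centred EVX1 KO replicate 1 and 2 values), and the 8 largest falls and rises among genes called in Evx1as KO with groups apart; XLOC, Gm, Rik and pseudogene names were passed over. A few other genes are given as examples, such as Gins4, Psmd7, Zfp42 and neighbours, chosen after their values were seen. A few genes that the rule names are not reported here. Alternatives covered the pseudocount, the FPKM minimum and filter, scaling, centring, the samples fitted, a replicate block and leaving out each library. Same-numbered libraries of different groups correlated at −0.10 to 0.08 in their deviations from group means, so the numbers were not treated as pairs. Python 3.11.15, pandas 2.3.3, numpy 2.4.6 and matplotlib 3.10.9 were used.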

Additional observations from a re-analysis of the deposited data

How the results depend on the processing

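The chromosome 8 median of EVX1 KO replicate 1 (−0.38) was −0.43 with a minimum of 20 FPKM, −0.46 centred on WT and −0.51 centred on the median of the other 6 libraries, and between −0.43 and −0.36 with 1 library left out. That of replicate 2 (−0.30) was −0.35 centred on WT and −0.42 centred on the other 6, and between −0.35 and −0.27 with 1 library left out. That of replicate 3 (0.08) was 0.034 centred on WT, −0.021 centred on the other 6, a centring added after seeing the data, and between 0.033 and 0.11 with 1 library left out. The count lowest in both libraries (322 of 504) was 194 of 263 with a minimum of 20 FPKM, and 51 of 131 before 50 Mb. The count not sharing the drop (15) was 32 with a minimum of 1 FPKM, 1 with a minimum of 20 FPKM, 38 against the WT mean and 9 against the WT mean and EVX1 KO replicate 3. For Evx1as KO against WT (79 higher, 25 lower) limma called 39 and 14 with no filter, 57 and 23 with a replicate block, and 29 to 107 higher and 7 to 35 lower with 1 library left out. For EVX1 KO against WT (0 higher, 6 lower) it called 2 higher with a pseudocount of 0.1 and 1 higher with a filter of 5 FPKM. Of all genes in those fits 0.705% and 1.38% were called higher. It called 0 lower with no filter, 0 lower with only the 2 groups and 1 lower with the replicate block, beside 0.067%, 0.150% and 0.106% of all genes. With 1 knockout library left out it called 0 to 3 higher and 0 to 143 lower, beside 0.0153% to 2.17% and 0.0153% to 2.74% of all genes. For EVX1 KO against Evx1as KO (10 higher, 156 lower) it called 77 lower (15.3%) with no filter, beside 4.54% of all genes in that fit. With the replicate block it called 10 higher (1.98%) and 171 lower (33.9%), beside 9.49% and 9.95%. With 1 knockout library left out it called 8 to 18 higher and 63 to 319 lower, beside 5.30% to 9.71% and 5.15% to 10.5% of all genes. The cause of these changes was not tested. The replicate numbers were not treated as pairs, although correlations over so few libraries per group cannot exclude a pairing. The replicate block lost 5 of the 32 named calls of Evx1as KO against WT. Of those 32, 16 kept their call in every alternative run, and 12 were lost without WT replicate 1, the most with any library left out. No called fold change of Evx1as KO against WT changed sign. Centring on WT turned the sign of the centred values of genes that differ between WT and Evx1as KO, among them Zfp703, Cdh11, Dlc1 and Esrp2 in EVX1 KO replicate 1, which then lay below 0. With only 2 WT libraries and no read counts, small shifts of single genes cannot be resolved.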
